A study of Mus musculus with 47 samples.

Results

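The libraries described here are the basal, stem cell containing mammary fraction of mice that received estradiol and progesterone with telapristone acetate, set against the same fraction of mice that received the hormones alone. They were chosen by their labels, as every library of the fraction called mammary stem cell (MSC) with 1 of these 2 treatments, which gave 8 of the 47 libraries of the series, 4 in each group. All mice were of the FVB strain and had been ovariectomized. The EP group received E2 (estradiol) and progesterone for 14 days. The EP+TPA group received the same hormones with TPA, telapristone acetate, a steroidal antagonist of the progesterone receptor, over the same time. The other basal libraries were 4 from sham-treated mice and 4 from mice given EP with RU486 (mifepristone), an older antagonist of the same receptor. The labels give neither the doses nor the ages of the animals, nor the surface markers of the cell sort, and no group received estradiol alone or an antagonist alone. Each library came from a separate mouse, named here by its number, and the same 8 mice also gave the luminal progenitor (LP) libraries used below.

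In the mammary gland, progesterone binds its receptor in a subset of luminal cells. These cells release signals such as RANKL (gene Tnfsf11), WNT4 and amphiregulin (gene Areg), which act on neighbouring luminal and basal cells. Basal cells, most of which lack the progesterone receptor, include the contractile myoepithelium and cells that can rebuild a gland on transplantation, and they divide when progesterone is high. Antagonists such as telapristone and mifepristone compete for the receptor and are known to block this response in the luminal cells.

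The deposited values had the scale of FPKM, in which fragment numbers are divided by transcript length and by sequencing depth, so the depth of each library is unknown. Each gene had been adjusted so that its mean was nearly equal between sets of libraries. The LP libraries and 6 MSC libraries formed 1 set, here the smaller basal set, with EP mice 306 and 322 and EP+TPA mouse 323. The other 10 MSC libraries formed the larger basal set, with EP mice 311 and 327 and EP+TPA mice 312, 328 and 336. Levels were therefore compared within a set, and every fit carried a term for the set. All values below were rescaled within a set for library size, and fold changes are on the scale of log2(value + 1), which understates the change of low genes. Summed over genes, the 16 MSC libraries held 217977 to 356258.

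The label of the fraction was checked against its markers first, because the libraries differed widely. Krt14, a keratin of basal cells, stood at 244 in EP 306, 1832 in EP 322, 136 in EP 311 and 735 in EP 327. In the EP+TPA group it stood at 3468 in mouse 323, 2.61 in mouse 312, 0 in mouse 328 and 623 in mouse 336. Krt5, its partner in the same filaments, was likewise 3.12 in EP+TPA 312 and listed at 0 in EP+TPA 328, against 58.5 in EP+TPA 336 of the same set. Acta2, the smooth muscle actin of myoepithelial cells, ran from 48.9 in EP+TPA 312 to 1438 in EP 327 in the larger set. In the smaller set it ran from 255 in EP 306 to 3315 in EP+TPA 323. Thus 2 of the 4 EP+TPA libraries, from mice 312 and 328, almost lacked the defining keratins. Of the 4 EP+RU486 libraries, 313 and 329 did too, with Krt14 listed at 0 in both and 9 of 15 basal markers at 0 in mouse 313. Low basal levels were not confined to antagonist libraries. The mean log2 level of the 15 basal markers was 3.49 in sham 310, with Trp63 listed at 0, against 3.36 and 3.28 in EP+TPA 312 and 328. Counts for the cell cycle lists and for each comparison of EP+TPA are given with and without the EP+TPA or EP+RU486 libraries named here. These fits were added after seeing the data, and sham 310 was kept in them.

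Transcripts of other cell types were also present in uneven amounts. The summed level of 18 luminal progenitor markers was 1845 in EP 306, 2643 in EP 322, 8532 in EP 311 and 7918 in EP 327. In the EP+TPA group it was 4265 in mouse 323, 9716 in mouse 312, 13794 in mouse 328 and 9301 in mouse 336. The larger set held a high common level of luminal genes, taken up below. The summed level of 15 endothelial markers, genes of the vessel lining, was 2895 in EP 306, 435 in EP 322, 1310 in EP 311 and 0 in EP 327, where all 15 were listed at 0. In the EP+TPA group the sum was 778 in mouse 323, 1952 in mouse 312, 967 in mouse 328 and 1233 in mouse 336. The sum of 10 adipocyte markers was 11224 and 571 in EP 306 and 322 and 840 in EP+TPA 323 of the smaller set. In the larger set it was 1709 and 1.49 in EP 311 and 327 and ran from 323 to 2637 in the EP+TPA libraries. The median log2 fold (EP+TPA over EP) was -0.20 over 15 basal markers, 1.65 over the endothelial markers and -0.49 over the adipocyte markers, against 0.06 over all genes tested. The endothelial median rested on EP 327 and was 0.03 without it, the adipocyte median was 0.27 without EP 306, and the basal median was 1.05 without EP+TPA 312 and 328. No marker of the basal, endothelial and adipocyte lists passed an unadjusted p under 0.05. Fewer cells of a type and less RNA per cell cannot be told apart in bulk libraries.

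**Figure D1:**
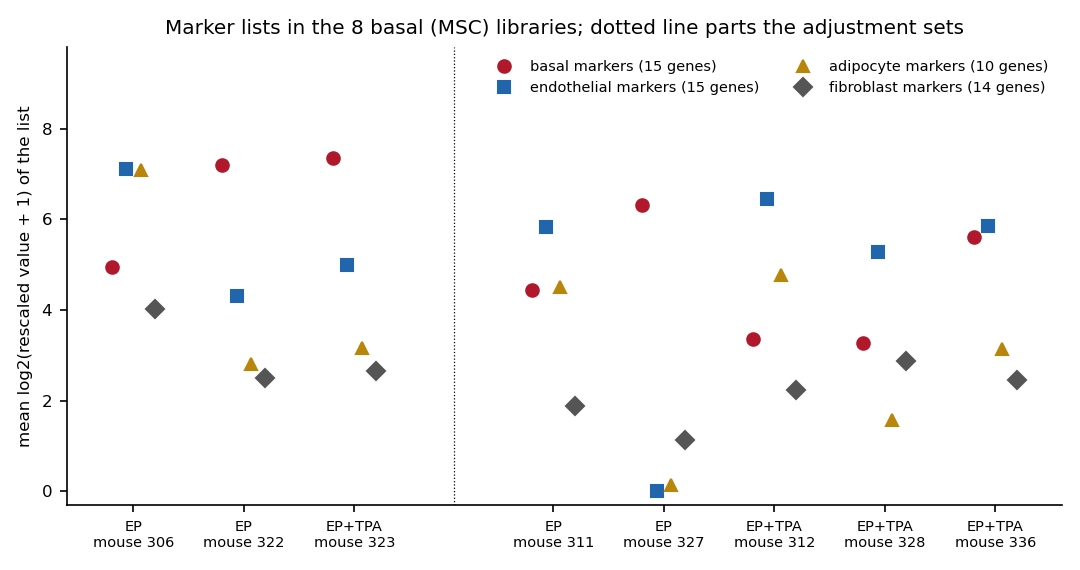
Mean log2(rescaled value + 1) of 4 marker lists (vertical axis) in each of the 8 basal libraries (horizontal axis), with a dotted line between the smaller set on the left and the larger set on the right. Within their sets EP 322, EP 327 and EP+TPA 323 are high in basal and low in endothelial markers, while EP+TPA 312 and 328 have the lowest basal levels of the larger set.

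The main comparison asks what telapristone changed in this fraction when the hormones were present. With limma and Benjamini-Hochberg adjustment, 0 of 12188 genes tested passed an adjusted p of 0.05, and the smallest adjusted p was 0.0624. At an unadjusted p under 0.05 there were 854 genes (7.01%), 445 lower (3.65%) and 409 higher (3.36%) in EP+TPA. The 854 became 1420 without EP 306, 512 without EP 327 and 845 without EP+TPA 312 and 328. In the values as deposited, before rescaling, 2058 genes were lower and 46 higher. The genes with the smallest p were lower in EP+TPA, and 5 of the first 6 are genes of cell division or of the supply of DNA precursors. With weights that let noisier libraries count less, 141 genes fell (1.16%) and 15 rose (0.123%) at an adjusted p of 0.05. With a stricter filter on low values and no weights, the smallest limma adjusted p was 0.320 over 7927 genes.

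Genes of mitosis were lower in EP+TPA almost without exception. Of 32 genes on the mitosis list 26 passed the filter on low values, and the log2 fold of all 26 was below 0, with a median of -1.14 against 0.06 over all genes tested. In 23 of the 26 the unadjusted p was under 0.05, against 3.65% of all genes in that direction. In 24 of the 26 every EP+TPA library was below every EP library of its own set, against 3.88% of all genes tested. With library weights 23 of the 26 fell at an adjusted p of 0.05. The list was chosen with earlier results of these data known, so its direction is not independent evidence.

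Racgap1, which helps to place the cleavage furrow, stood at 2.80 and 4.51 in EP 306 and 322 against 1.17 in EP+TPA 323. In the larger set it stood at 8.25 and 7.33 in EP 311 and 327 against 1.59, 1.86 and 0.810 in EP+TPA 312, 328 and 336. The groups did not overlap in either set, and the log2 fold was -1.63 (SE 0.24, adjusted p = 0.0624 by limma). Cdk1, the kinase that starts mitosis, was 2.61 and 3.32 in EP 306 and 322 and 1.17 in EP+TPA 323. It was 5.17 and 4.83 in EP 311 and 327 and 0.583, 1.27 and 0.206 in EP+TPA 312, 328 and 336. Here too every EP+TPA library was lower than every EP library of its set, and the log2 fold was -1.54 (SE 0.26, limma adjusted p = 0.0759). Ccna2, the cyclin of S phase and G2, gave a log2 fold of -1.44 (SE 0.24, limma adjusted p = 0.0759), and Prc1, which bundles the microtubules of the spindle midzone, -1.33 (SE 0.28, limma adjusted p = 0.163). Cenpn, a protein of the centromere, ran from 1.54 to 2.83 over the EP libraries and from 0.313 to 0.617 over the EP+TPA libraries. In this comparison only EP libraries reached the value of 1 that the filter asked for, so its EP+TPA values are near the floor. The groups did not overlap in either set (log2 fold -1.20, SE 0.19, limma adjusted p = 0.0636).

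Top2a, the topoisomerase that untangles sister chromosomes, was 2.91, 3.15, 5.57 and 5.15 in EP 306, 322, 311 and 327. It was 1.11, 1.11, 2.38 and 0.969 in EP+TPA 323, 312, 328 and 336. EP+TPA 328 was the highest of its group, yet it stayed below both EP libraries of its set (log2 fold -1.22, SE 0.28, limma adjusted p = 0.250). Mki67, the gene of the division marker Ki-67, did not reach the filter on low values and was not tested in this fit. It was listed at 0.768, 0.881, 0.673 and 0.888 in EP 306, 322, 311 and 327 and at 0.214, 0.412, 0.289 and 0.0305 in EP+TPA 323, 312, 328 and 336. The other members that missed the filter were Bub1, Nuf2, Ttk, Cenpe and Cenpf. Foxm1, a transcription factor of mitotic genes, was the tested member with the smallest difference (log2 fold -0.33, unadjusted p = 0.153).

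Promoters of the mitosis genes are shown because these genes moved together and share short elements that are known to bind cell cycle repressors and the factor NF-Y. The windows are the 200 bases before the RefSeq start site in build GRCm38.p6, for the 4 genes of the list with the smallest p among those with an entry. Capitals mark every match on either strand to CCAAT (the site of NF-Y), to TTTGAA (the cell cycle homology region), to GCGGGAA (an E2F site) or to TGTTCT (a steroid receptor half-site). Racgap1 lies on the minus strand (chr15:99651657-99651856), Cdk1 on the minus strand (chr10:69352913-69353112), Prc1 on the plus strand (chr7:80294251-80294450) and Ube2c, which helps to mark cyclins for destruction, on the plus strand (chr2:164769729-164769928). Each is printed 5′ to 3′ on the strand of its gene.
Racgap1: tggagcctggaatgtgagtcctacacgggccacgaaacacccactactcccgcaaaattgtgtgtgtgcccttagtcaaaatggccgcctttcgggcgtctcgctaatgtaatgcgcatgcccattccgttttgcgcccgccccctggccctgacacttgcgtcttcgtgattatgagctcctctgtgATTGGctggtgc
Cdk1: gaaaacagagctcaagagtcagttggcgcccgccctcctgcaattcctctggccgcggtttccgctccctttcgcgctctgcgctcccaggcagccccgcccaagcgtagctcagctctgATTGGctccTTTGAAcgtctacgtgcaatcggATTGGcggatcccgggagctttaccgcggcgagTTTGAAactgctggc
Prc1: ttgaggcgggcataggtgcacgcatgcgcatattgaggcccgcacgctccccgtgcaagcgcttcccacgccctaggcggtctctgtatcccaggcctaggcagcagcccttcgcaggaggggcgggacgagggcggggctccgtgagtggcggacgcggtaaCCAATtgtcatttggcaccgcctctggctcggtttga
Ube2c: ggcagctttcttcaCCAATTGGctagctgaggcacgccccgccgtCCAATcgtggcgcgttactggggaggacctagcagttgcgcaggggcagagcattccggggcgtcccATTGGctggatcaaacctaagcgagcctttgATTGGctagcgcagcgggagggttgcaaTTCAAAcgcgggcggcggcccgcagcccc

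All 4 windows held CCAAT, Ube2c on both strands, and those of Cdk1 and Ube2c also held TTTGAA. The motif CCAAT was present in 21 of 26 mitosis promoters with an entry (80.8%), against 32.4% of 9265 promoters of tested genes and 30.0% of all 27025 promoters, taking the first entry of each gene. TTTGAA was present in 30.8% of the mitosis promoters, against 7.18% of the tested and 12.7% of all promoters. GCGGGAA was in 0 of the 26, but in 7 of 26 promoters of the DNA replication list (26.9%), against 6.10% of the tested and 3.31% of all. TGTTCT was in 1 of the 26 mitosis promoters and in 3 of the 26 replication promoters, against 7.6% of the tested and 12.9% of all. A match says only that these letters lie in the window, and no match only that they do not.

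Genes of DNA replication were lower as well, by less. Of 32 members 30 were tested, 29 had a log2 fold below 0, and the median was -0.73. In 22 of the 30 the unadjusted p was under 0.05 (3.65% of all genes), and in 18 every EP+TPA library was below the EP libraries of its set (3.88%). With library weights 21 of the 30 fell at an adjusted p of 0.05 (1.16%). All 6 subunits of the MCM helicase, which opens DNA ahead of the replication fork, were among the 22. Mcm5, one of them, was 5.34 and 10.04 in EP 306 and 322 against 3.48 in EP+TPA 323, and 20.5 and 22.7 in EP 311 and 327 against 6.798, 7.52 and 5.25 in EP+TPA 312, 328 and 336. The EP+TPA libraries were lower in both sets, by a wider margin in the larger one (log2 fold -1.30, SE 0.25, limma adjusted p = 0.140).

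Enzymes that make DNA precursors were among the clearest members. Rrm2, the small subunit of ribonucleotide reductase, was 6.53, 9.19, 16.7 and 16.4 in EP 306, 322, 311 and 327 and 2.96, 1.33, 1.22 and 2.67 in EP+TPA 323, 312, 328 and 336. No EP+TPA library reached an EP library of its set (log2 fold -2.06, SE 0.43, limma adjusted p = 0.163). Tk1, thymidine kinase, had a log2 fold of -1.52 (SE 0.28, limma adjusted p = 0.0934). Tyms, thymidylate synthase, had one of -0.86 (SE 0.19, limma adjusted p = 0.219). Dck, the kinase of deoxycytidine, was no member of the list but had one of the smallest p of all genes, from 2.35 to 3.29 in the EP and from 0.385 to 1.44 in the EP+TPA libraries (log2 fold -1.02, SE 0.17, limma adjusted p = 0.0734). Dscc1, part of a clamp loader for sister chromatid cohesion, had the smallest p of all (log2 fold -1.16, SE 0.17, limma adjusted p = 0.0624). Its EP+TPA values were also under the filter level of 1, from 0.196 to 0.543 as deposited. Pcna, the sliding clamp of the replication fork, was the 1 member with a log2 fold above 0 (0.02, unadjusted p = 0.947).

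**Figure D2:**
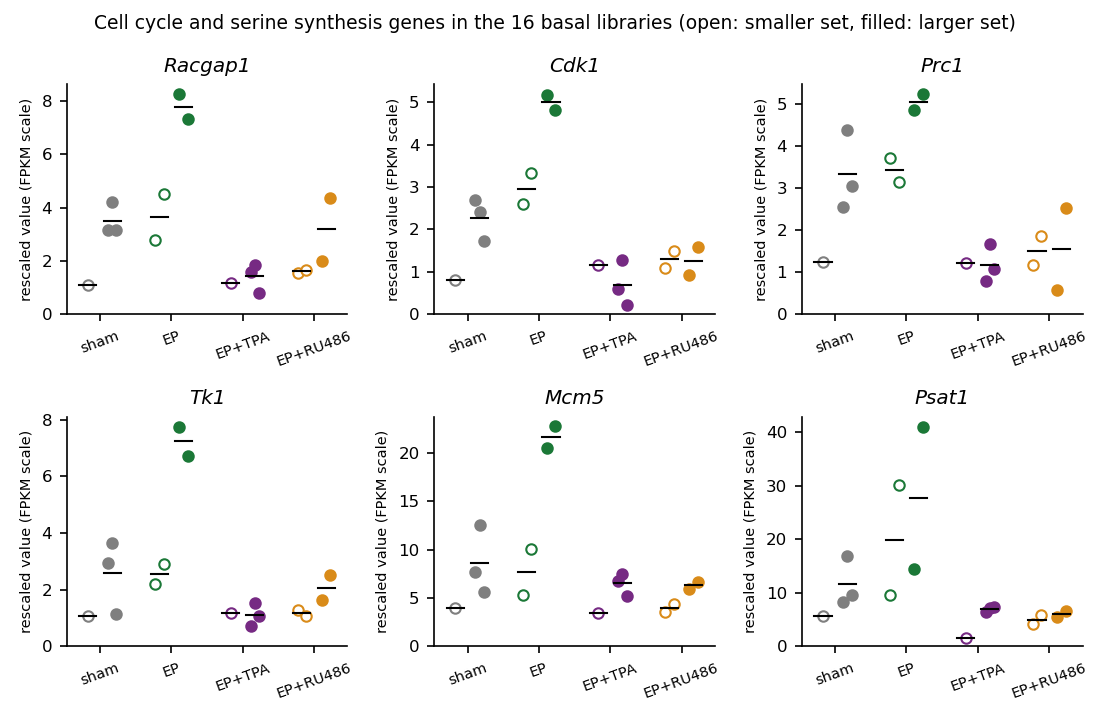
Rescaled value on the FPKM scale (vertical axis, linear from 0) of 6 genes in all 16 basal libraries by treatment (horizontal axis), with open points for the smaller set, filled points for the larger set and a bar at the mean of each. In each of the 6 genes the EP+TPA points lie below the EP points of the same set, and the EP points of the larger set lie above those of the smaller set for Racgap1, Cdk1, Prc1, Tk1 and Mcm5.

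The level of the mitosis and replication lists was also read in each library beside its markers. EP 327, with all endothelial markers listed at 0, and EP 311, with an endothelial sum of 1310, were alike in both lists, at 0.02 and -0.02 log2 units from the EP mean of their set. Among the EP+TPA libraries of the larger set, the mean mitosis level was -1.52 and -0.94 log2 units relative to EP in mice 312 and 328, which nearly lacked Krt14, and -1.56 in mouse 336, with Krt14 at 623. EP+TPA 323, the basal-rich library of the smaller set, was at -0.73 for mitosis and -0.32 for replication. Without EP+TPA 312 and 328, 19 of 26 mitosis genes and 18 of 30 replication genes were lower at an unadjusted p under 0.05, with medians of -1.18 and -0.71 (3.32% of all genes). With the basal marker level as a covariate the counts were 23 and 22 (4.22% of all genes), and with the endothelial marker level 21 and 21 (4.55% of all genes). The covariate fits were also added after seeing the data, and the part of cell makeup in these differences was not tested.

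Regulators of the cycle that do not rise and fall with division showed no common direction. Over 14 tested cyclin D, CDK, RB and CDK inhibitor genes the median log2 fold was -0.07, with Ccnd2 lower and Rb1 higher at an unadjusted p under 0.05. Ccnd1, the cyclin of early G1, was 31.8, 27.1, 61.8 and 43.8 in EP 306, 322, 311 and 327 and 27.3, 49.2, 30.1 and 33.4 in EP+TPA 323, 312, 328 and 336. The groups overlapped in both sets (log2 fold -0.29, SE 0.31, limma adjusted p = 0.869).

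Of 15 tested serine and one-carbon genes, 4 were lower at an unadjusted p under 0.05, against 3.65% of all genes, and the list median was -0.20. They were Phgdh, Psat1 and Psph of serine synthesis and the folate enzyme Mthfd2, and the count was 7 without EP 306 and 2 without EP 322, EP 327 or EP+TPA 323. Psat1, the second enzyme of the pathway from glucose to serine, was 9.52, 30.1, 14.5 and 40.9 in EP 306, 322, 311 and 327. It was 1.51, 6.36, 7.11 and 7.36 in EP+TPA 323, 312, 328 and 336, lower in every library of both sets (log2 fold -2.04, SE 0.40, limma adjusted p = 0.139). Phgdh, the first enzyme, was 21.4, 25.8, 21.3 and 30.9 in the EP libraries in the same order and 15.0, 3.85, 6.21 and 7.45 in the EP+TPA libraries. All EP+TPA values were lower (log2 fold -1.51, SE 0.32, limma adjusted p = 0.190). Mthfd2, which acts in mitochondria, gave -1.17 (SE 0.47, limma adjusted p = 0.650). With library weights Psat1 and Phgdh fell, at limma adjusted p of 0.0244 and 0.000603.

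Among the genes outside these lists, Glb1l2, a gene related to beta-galactosidase, was 9.15, 4.16, 3.37 and 2.68 in EP 306, 322, 311 and 327. It was 1.67 and 0.619 in EP+TPA 323 and 312 and listed at 0 in EP+TPA 328 and 336 (log2 fold -1.67, SE 0.26, limma adjusted p = 0.0624). Ntf3, the growth factor neurotrophin 3, ran from 2.03 to 7.10 in the EP libraries and from 0.0741 to 0.923 in the EP+TPA libraries, which did not overlap (log2 fold -1.51, SE 0.28, limma adjusted p = 0.0935). It was named for its difference from the RU486 group, described below.

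The 6 genes with the smallest p among those higher in EP+TPA were Papln, Pamr1, Prelp, Krt80, Tnni2 and Bcar1, with log2 folds from 0.94 to 2.36 and limma adjusted p from 0.0908 to 0.278. Prelp, a proteoglycan of connective tissue, was 40.4, 21.1, 29.7 and 37.7 in EP 306, 322, 311 and 327 and 144, 50.3, 90.8 and 103 in EP+TPA 323, 312, 328 and 336. Papln, a secreted matrix protein, was 14.0, 14.1, 61.0 and 44.7 against 47.9, 80.2, 87.7 and 106, in the same order. Both were higher in every EP+TPA library than in the EP libraries of its set, as were 442 of all genes (3.63%). In the deposited values, before rescaling, Papln was still higher without overlap, but Prelp was not. Pamr1, a secreted protease-like protein, was 2.23, 2.55, 0.0171 and 0 in the EP libraries and 21.2, 2.06, 6.55 and 4.51 in the EP+TPA libraries, with the highest value in mouse 323.

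Genes tied to mammary stem cells did not move as a group. Of 21 tested, 1 was lower and 2 were higher at an unadjusted p under 0.05, against 3.65% and 3.36% of all genes, with a median of 0.16. Axin2, a target of Wnt signalling, was 0.379, 2.30, 0.363 and 1.30 in EP 306, 322, 311 and 327 and 0.202, 0.114, 0.114 and 0 in EP+TPA 323, 312, 328 and 336. Every EP+TPA value was lower than the EP values of its set, but EP 306 and 311 were themselves low (log2 fold -0.76, SE 0.31, limma adjusted p = 0.655). Tspan8, a surface protein of some stem cells and of luminal cells, had a log2 fold of 0.62 (SE 0.24, limma adjusted p = 0.642), which was at an unadjusted p of 0.025. As deposited in the larger set it was 63.2 and 60.1 in EP 311 and 327 and 60.5, 74.6 and 63.6 in EP+TPA 312, 328 and 336. The lowest value of that set was 59.6, a high common level taken up below with the luminal genes.

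Levels of single stem cell genes varied widely between libraries. Id4, a regulator confined largely to basal cells, was 11.4, 74.7, 7.58 and 77.4 in EP 306, 322, 311 and 327 and 31.0, 0, 5.59 and 2.21 in EP+TPA 323, 312, 328 and 336. Trp63, the transcription factor that maintains the basal lineage, was 2.73, 28.1, 4.76 and 25.0 against 13.1, 0, 3.37 and 1.82. Both were highest in EP 322 and 327, where Krt14 was high, but low in EP+TPA 336, which had Krt14 at 623, and the groups overlapped in the smaller set (log2 folds -1.81, SE 1.23, and -1.19, SE 1.0). Procr, a receptor found on some stem cells and on endothelium, ran the other way, listed at 0 in EP 327, where the endothelial markers were also listed at 0, and at 235 and 240 in EP+TPA 312 and 328 (log2 fold 2.51, SE 1.73, limma adjusted p = 0.809). Lgr5 and Lgr6, receptors for R-spondin, had log2 folds of -0.11 (SE 0.47) and -0.48 (SE 0.84), and Sox9 0.61 (SE 0.33), none at an unadjusted p under 0.05. The part of cell makeup in these values was not tested.

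No structural gene of basal cells passed an adjusted p of 0.05. Of 19 tested contractile genes of the myoepithelium 0 had an unadjusted p under 0.05 (median 0.10). That median was 0.80 without EP+TPA 312 and 328, and from -0.24 (without EP 306) to 0.94 (without EP 327) leaving out 1 library. With the endothelial marker level as a covariate it was 0.91. In that fit 4 of the 19 were higher at an unadjusted p under 0.05, as were 730 of all 12188 genes. Of 19 genes of basal adhesion and keratins Krt15 and Dsc3 were lower and Dst was higher at that p, against 3.65% and 3.36% of all genes. Krt15, a keratin of some basal progenitors, was 11.8, 513, 29.9 and 125 in EP 306, 322, 311 and 327. It was 29.7 in EP+TPA 323 and listed at 0 in EP+TPA 312, 328 and 336, although mouse 336 had Krt14 at 623 (log2 fold -4.22, SE 1.69, limma adjusted p = 0.650). The groups overlapped in the smaller set only, and Krt15 was also listed at 0 in 1 sham library and 2 EP+RU486 libraries of the larger set. Krt5, Krt14, Acta2 and Oxtr, the oxytocin receptor, had log2 folds of -1.36 (SE 1.59), -1.84 (SE 2.19), 0.07 (SE 2.18) and 0.74 (SE 0.62). Without EP+TPA 312 and 328 the folds of Krt5 and Krt14 turned to 1.05 and 1.67. With standard errors this wide, a difference of several fold in either direction was not detectable.

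Of the receptors and signals of the progesterone pathway, only the decoy receptor Tnfrsf11b, among those named here, had an unadjusted p under 0.05. Pgr, the receptor that telapristone binds, was 0.317, 1.06, 1.82 and 1.85 in EP 306, 322, 311 and 327 and 1.18, 1.33, 1.73 and 1.51 in EP+TPA 323, 312, 328 and 336 (log2 fold 0.02, SE 0.19, limma adjusted p = 0.990). Esr1, the estrogen receptor, had a log2 fold of 0.06 (SE 0.26), Tnfsf11 0.34 (SE 0.40), its receptor Tnfrsf11a 0.63 (SE 0.51), Wnt4 0.29 (SE 0.20), Areg -0.31 (SE 0.36) and Egfr, the receptor of amphiregulin, 0.35 (SE 0.38). None of these 7 had an unadjusted p under 0.05. Tnfrsf11b, the soluble decoy receptor that binds RANKL, was 1.67, 3.06, 2.79 and 3.33 in EP 306, 322, 311 and 327 and 0.901, 0, 0.115 and 0.719 in EP+TPA 323, 312, 328 and 336. It was lower in every EP+TPA library (log2 fold -1.34, SE 0.38, limma adjusted p = 0.397). Rspo1, the luminal ligand of the Lgr receptors, gave 0.26 (SE 0.18).

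These luminal genes need a caution, because the deposited values of the larger basal set sit on a high common level for them. The lowest deposited Rspo1 value among those 10 libraries was 18.9, and the 5 EP and EP+TPA libraries of that set stood between 18.9 and 24.9. For Csn3, a milk protein gene of the luminal lineage, the lowest value there was 1183, against 73.8 in the smaller set. A difference in such a gene is therefore compressed in the deposited values. It then moves with the rescaling, because a gene without a shared lowest value was divided whole by the library factor. In the larger set Csn3 was deposited at 1183 and 1186 in EP 311 and 327 and at 1191, 1673 and 1202 in EP+TPA 312, 328 and 336. Rescaled, it was 1101 and 903 against 1275, 1944 and 1256, a wider difference. All 18 luminal progenitor markers and all 12 pan-luminal markers had log2 folds above 0, as did 7074 of 12188 genes tested. Of them 7 and 6 had an unadjusted p under 0.05, against 3.36% of all genes (medians 0.47 and 0.48). Without EP+TPA 323 these counts were 1 and 0, and without EP 327 they were 2 and 0. In the values as deposited, which moved the median of all genes from 0.06 to -0.25, 0 of the 18 and 0 of the 12 did (medians 0.10 and 0.09). The mitosis and replication genes were lower in the deposited values too, 25 of 25 and 25 of 30 at an unadjusted p under 0.05 (17.1% of all genes). Because the median of all genes also moved down there, these counts cannot show that the lists are independent of the rescaling.

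Of 20 tested targets shared by the progesterone and glucocorticoid receptors, 16 had a log2 fold above 0, with a median of 0.56. Over all genes tested, 7074 of 12188 did. At an unadjusted p under 0.05, 0 were lower and 1, Cebpd, was higher, against 3.65% and 3.36% of all genes. The median was 0.13 without EP 327, 0.22 with the endothelial marker level as a covariate and 0.15 in the values as deposited. Fkbp5, a chaperone of these receptors, was 7.02, 3.17, 13.6 and 0.721 in EP 306, 322, 311 and 327 and 3.64, 17.3, 8.89 and 6.40 in EP+TPA 323, 312, 328 and 336 (log2 fold 0.64, SE 0.79). Tsc22d3 and Zbtb16, further targets, had log2 folds of 0.13 (SE 0.35) and 0.23 (SE 0.52). Mifepristone is known to block the glucocorticoid receptor as well.

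Of 23 tested TGF-beta and BMP genes, which restrain epithelial growth, 6 were higher and 1 was lower at an unadjusted p under 0.05, against 3.36% and 3.65% of all genes (median 0.38). The 6 were Tgfb3, Tgfbr1, Smad6, Smad7, Inhbb and Bmp2, named after their values were seen, with log2 folds from 0.43 to 1.06. The 6 became 2 without EP 327 or EP+TPA 323, 3 without EP 322 or EP+TPA 312, and 0 in the values as deposited. The lists that follow held at most 2 such genes in a direction, to be read against the same shares. In 31 Wnt pathway genes Axin2 was lower and Wnt7b and Dkk3 were higher, and in 22 genes of RANK and NF-kB Tnfrsf11b was lower and Rela higher. Of 22 Notch genes Notch2 and Numb were higher, and of 21 genes of the EGF family Tgfa and Erbb2 were higher. Over 50 ribosomal protein genes the median was 0.08, with 0 at an unadjusted p under 0.05.

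**Figure D3:**
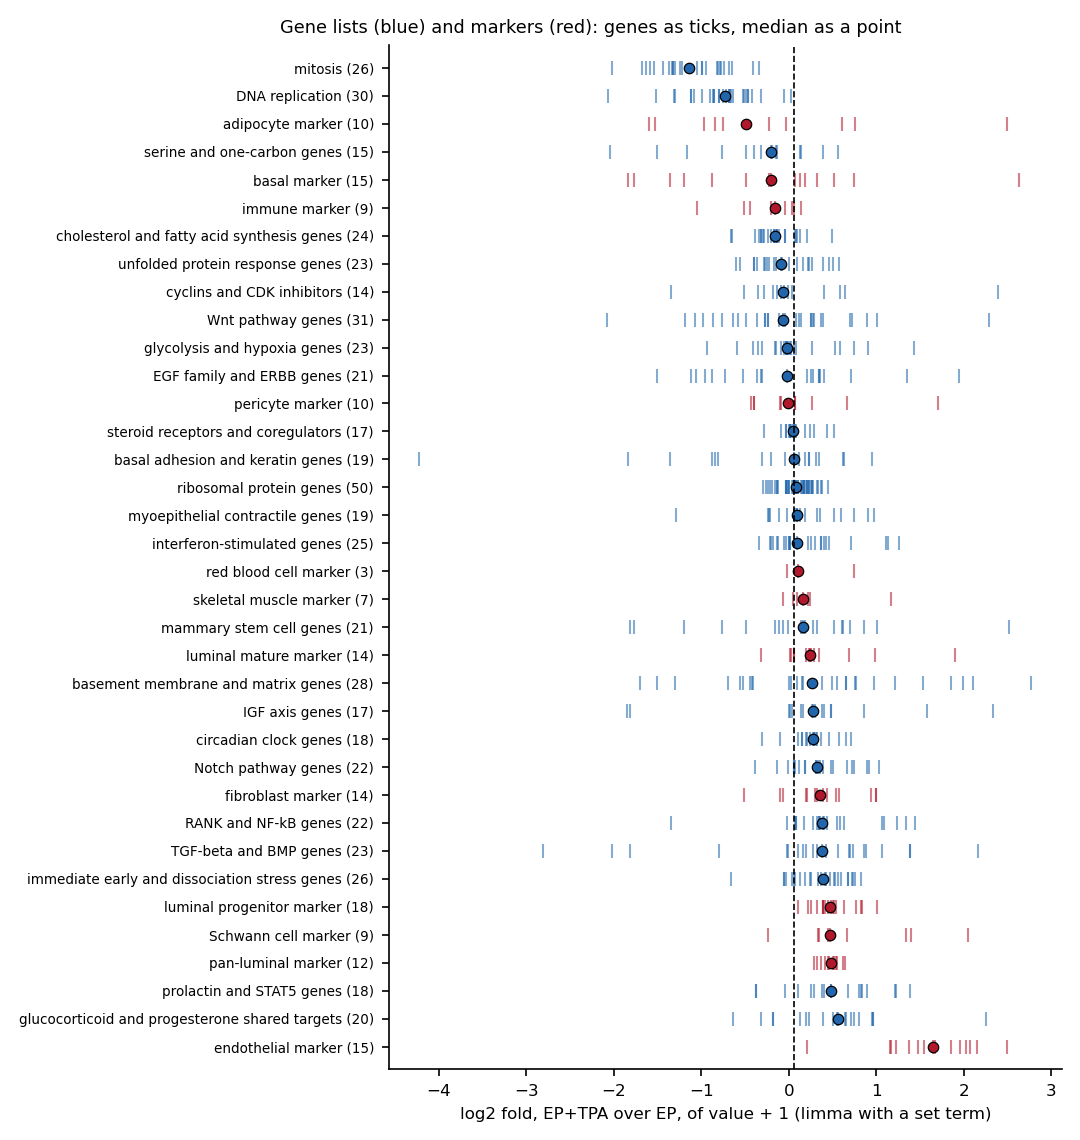
Log2 fold (EP+TPA over EP, horizontal axis) of every tested gene of the 24 pathway lists (blue) and 12 marker lists (red), 1 tick a gene, with the median as a point, the number tested in brackets and the median of all genes as a dashed line. Mitosis (-1.14) and DNA replication (-0.73) have the lowest medians and endothelial markers (1.65) the highest.

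The same genes can be set beside the hormone effect and the other antagonist, with the reservation that all 3 comparisons share the 4 EP libraries. In EP against sham, 645 genes had an unadjusted p under 0.05 (5.29%), 312 of them higher in EP (2.56%), and 0 passed an adjusted p of 0.05 by limma. Of the 26 mitosis genes 16 were among those higher in EP (median 0.77), and of the 30 replication genes 17 (median 0.61). In EP+RU486 against EP, 582 genes had an unadjusted p under 0.05 (4.78%), 367 of them lower (3.01%), and 0 passed an adjusted p of 0.05. There 22 of 26 mitosis genes (median -0.997) and 22 of 30 replication genes (median -0.67) were lower. Without EP+RU486 313 and 329, which nearly lacked Krt14, 13 of 26 and 11 of 30 were (medians -0.87 and -0.55, 1.47% of all genes). Cdk1, for example, was 0.816, 2.70, 2.41 and 1.72 in sham 305, 310, 326 and 334 and 1.09, 1.501, 0.930 and 1.58 in EP+RU486 308, 324, 313 and 329. In each set, every sham and EP+RU486 library was below both EP libraries.

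**Figure D4:**
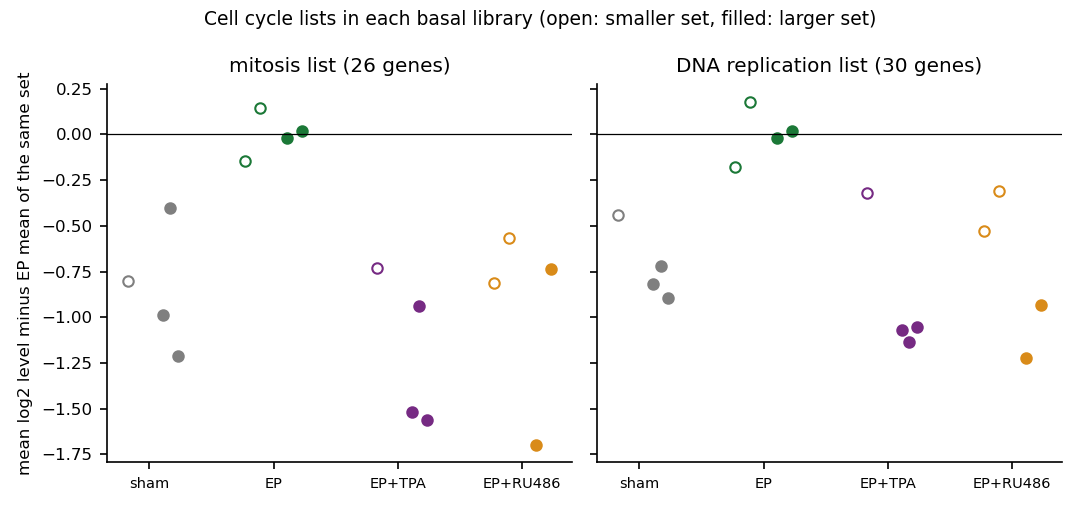
Mean log2 level of the mitosis and DNA replication lists in each basal library minus the EP mean of the same set (vertical axis) by treatment (horizontal axis), with open points for the smaller set and filled points for the larger set. The EP libraries lie from -0.18 to 0.18, and every sham, EP+TPA and EP+RU486 library lies below them, from -0.31 down to -1.70.

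Telapristone and mifepristone were also compared directly, with the doses of both not given in the labels. With limma, 0 of 12188 genes passed an adjusted p of 0.05 between EP+TPA and EP+RU486, and 197 had an unadjusted p under 0.05 (1.62%). That number was 603 of 12086 without EP+TPA 312 and 328, and 358 without EP+TPA 328 alone. It was 306 without EP+RU486 329 alone, 132 without EP+RU486 308, 127 without EP+TPA 323, and 295 of 11961 without all 4 libraries that nearly lacked Krt14, with 0 past an adjusted p of 0.05 in each. The median of the mitosis list was -0.14 and that of the replication list -0.06, with 1 gene of each list at an unadjusted p under 0.05. Without those 4 libraries the medians were -0.38 and -0.21, with 0 genes. For Cdk1 the log2 difference was -0.43, with a 95% interval from -0.99 to 0.13, and for Racgap1 -0.65, from -1.18 to -0.13 (limma adjusted p = 0.9998 for both). For Psat1 it was -0.31, from -1.16 to 0.54. Intervals of this width do not show that the compounds act alike. Ntf3 had the smallest unadjusted p of all genes in this comparison (log2 difference -1.17, unadjusted p = 0.000922, limma adjusted p = 0.9998).

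In EP+TPA against sham, 0 genes passed an adjusted p of 0.05 and 411 had an unadjusted p under 0.05 (3.37%), 226 lower (1.85%) and 185 higher (1.52%). Without EP+TPA 312 and 328 the number was 311 of 12086. Of the mitosis genes 4 of 26 were lower in EP+TPA (median -0.28), and of the replication genes 2 of 30 (median -0.13). Glb1l2 had the smallest p in this comparison (log2 fold -1.46, limma adjusted p = 0.615). Of 24 genes of cholesterol and fatty acid synthesis 6 were lower than in sham, and 2 were lower than in EP.

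The luminal progenitor libraries of the same 8 mice show where the basal fraction differed. In a fit of both fractions, which assumes that they vary alike although the median residual SD was 0.22 log2 units in LP and 0.35 in MSC, 1159 genes changed in LP (9.25%), 698 falling (5.57%) and 461 rising (3.68%). In that fit 136 genes changed in MSC (1.09%), 106 falling (0.846%) and 30 rising (0.239%). In LP 30 of 30 mitosis genes fell (median -1.67) and 28 of 32 replication genes (median -1.21), against medians of -0.99 and -0.70 for the same genes in MSC. The fold was nearer to 0, or higher, in MSC for 30 of 30 mitosis and 31 of 32 replication genes, against 7056 of all 12530 genes.

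The difference between the fractions itself was tested gene by gene. It passed for 204 of 12530 genes (1.63%), 139 higher (1.11%) and 65 lower (0.519%) in MSC relative to LP, but for only 6 (0.0479%) when the mouse was kept as a block, 5 of them among the 204. Of the cell cycle genes 2 of 30 mitosis (Birc5 and Ect2) and 1 of 32 replication genes (Uhrf1) passed without the block, named after their values were seen, and 0 passed with it. For Cdk1, 9.38, 4.81, 7.18 and 5.05 in LP of EP 306, 322, 311 and 327 stood against 0.926, 0.799, 0.642 and 1.14 in LP of EP+TPA 323, 312, 328 and 336. The groups did not overlap, and the log2 fold was -1.99 in LP, with a difference of 0.45 between the fractions (limma adjusted p = 0.693, and 0.746 with the block). The difference in fold between the fractions thus did not pass for most of these genes.

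**Figure D5:**
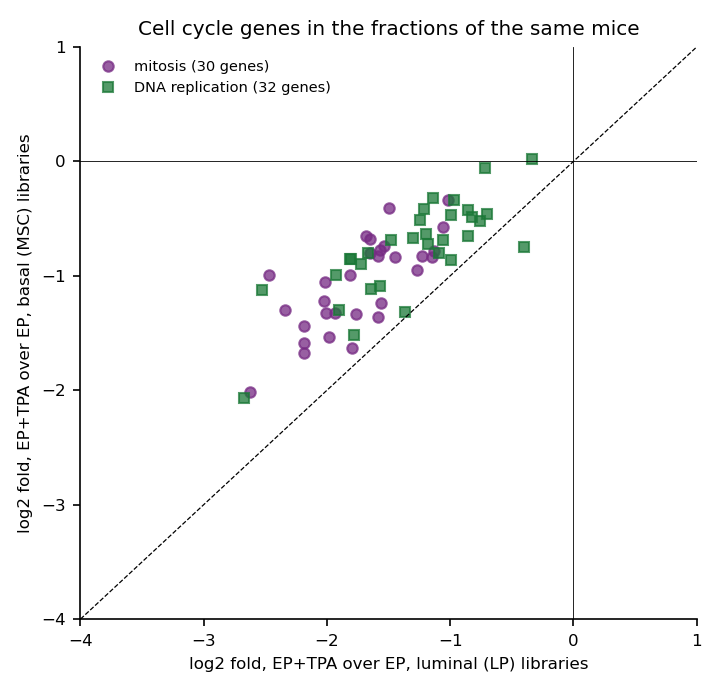
Log2 fold (EP+TPA over EP) of each mitosis and DNA replication gene in LP (horizontal axis) and in MSC (vertical axis), from the fit of both fractions, with a dashed line of equal folds. Nearly every gene lies below 0 in both fractions and above the line, which is a smaller fold in MSC.

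The differences that passed included hormone-induced luminal genes. Areg was 187, 367, 41.3 and 303 in LP of EP 306, 322, 311 and 327 and 6.28, 5.92, 6.67 and 8.03 in LP of EP+TPA 323, 312, 328 and 336, a log2 fold of -4.49 that was -0.31 in MSC. The difference was 4.17 (limma adjusted p = 0.00299, and 0.0636 with the block). For Rspo1 the fold was -3.01 in LP and 0.26 in MSC, a difference of 3.27 (limma adjusted p = 0.00201, and 0.0147 with the block). For Wnt4 it was -2.65 in LP and 0.29 in MSC (difference 2.94, limma adjusted p = 0.00781, and 0.0958 with the block), and for Pgr -1.89 and 0.02 (difference 1.91, limma adjusted p = 0.0141, and 0.101 with the block). EP 311 was the lowest EP library of LP in all 4 genes, and without mouse 311 in either fraction 548 differences passed. In the opposite direction Anxa8, an annexin, rose in LP (log2 fold 2.91) and gave 0.59 in MSC (difference -2.32, limma adjusted p = 0.00187, and 0.0147 with the block). All 5 genes are expressed by luminal cells. The high common level of such genes in the larger basal set compresses their deposited differences in MSC, and the rescaling moves them. The part of that level and of the rescaling in these differences between the fractions was not tested.

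A few genes differed more in the basal than in the luminal fraction. Glb1l2 had a log2 fold of -1.67 in MSC and -0.16 in LP (difference -1.51, limma adjusted p = 0.00315, and 0.162 with the block). Pamr1 gave 2.36 in MSC and -0.62 in LP (difference 2.98, limma adjusted p = 0.00299, and 0.0817 with the block). Ntf3 gave -1.51 in MSC and -0.06 in LP (difference -1.44, limma adjusted p = 0.00861, and 0.208 with the block). These 3 did not pass once the mouse was a block. For the serine enzymes the folds were -1.51 in MSC and -2.08 in LP for Phgdh and -2.04 and -1.41 for Psat1.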

How the data were processed

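RNA was measured by sequencing of amplified poly(A) RNA from sorted cells, and 8 of 47 libraries enter the main comparison. The values deposited by the authors are on the FPKM scale and carry a gene-wise adjustment between 3 sets of libraries. The tools named, without versions, are Cufflinks, DESeq2 and STAR, with build mm9, per the submitters' processing notes. Depth is unknown, so no count test was run. Of 22007 symbols, 27 that look like dates were dropped. Median-ratio factors (0.509 to 1.313 in MSC), computed set by set, were used to scale the part of each value above its gene's shared lowest value. Where no lowest value was shared between libraries of a set, the whole value was scaled.

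Fits used limma 3.58.1 (trend and robust empirical Bayes, R 4.3.3) on log2(value + 1), all 16 MSC libraries, a set term and a threshold of 0.05. Genes needed a value of 1 or more in at least 3 libraries and 3 libraries above the shared lowest value. Cenpn, Dscc1, Ntf3 and Tnfrsf11b were under 1 in every EP+TPA library, so in the main comparison only EP libraries counted toward that value. The fit was tested on simulated data. Named genes were those with the smallest p in each direction, genes fixed by name (the hormone receptors and signals, stem cell, basal, division and receptor target genes given above), and members of each list, comparison and difference with the smallest p, and others are marked. The members and lists were chosen with earlier results of these data known. In the fits of MSC alone, p-values measure the spread between mice. The fit of both fractions without a block treats the LP and MSC libraries of a mouse as independent, so its p-values do not. Libraries of both fractions came from the same mice, which is why the mouse was also used as a block, and the correlation of a mouse's deviations between fractions ran from -0.24 to 0.38. Alternatives are given in the closing section. Genes were matched by symbol, 21410 of 21980.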

Additional observations from a re-analysis of the deposited data

Results flagged for a closer look

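Within a group of 4 libraries, a value was singled out when its gap to the nearest other value was large for the range, which happens by chance in about 1 in 20 groups. At least 88 genes were scanned in both groups, so several such values arise by chance alone. In the EP+TPA group, mouse 323 was the highest library for Krt5 (554), Acta2 (3315), Oxtr (36.5), Krt15 (29.7) and Cebpd (393), and the lowest for Areg (11.8), Psat1 (1.51) and Uhrf1 (1.495). It was also the only EP+TPA library of the smaller set, and its set was not separated from the library in this comparison of 4 values. EP+TPA 328 was the highest of its group for Top2a (2.38) and Birc5 (6.47), and EP 306 was the highest EP library for Tsc22d3 (43.0).

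The effect of telapristone differed between the fractions (MSC minus LP, log2) for 14 of the genes named above. It was -1.51 for Glb1l2 (limma adjusted p = 0.00315), 2.98 for Pamr1 (0.00299), -1.44 for Ntf3 (0.00861), 1.91 for Pgr (0.0141), 2.94 for Wnt4 (0.00781), 3.27 for Rspo1 (0.00201) and 4.17 for Areg (0.00299). It was -2.03 for Tspan8 (0.0355), -2.72 for Csn3 (0.0190) and -2.32 for Anxa8 (0.00187). It was 1.48 for Birc5 (0.0403), 1.09 for Ect2 (0.0207), 1.40 for Uhrf1 (0.0221) and 4.04 for Dkk3 (0.0339). With the mouse as a block, Rspo1 and Anxa8 still passed (adjusted p of 0.0147 for both), and the other 12 did not.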

How the results depend on the processing

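The number of genes past the threshold in EP+TPA against EP was 0, and it was 2 with no filter on low values, 5 with the values as deposited, 156 with library weights, 1 with only the groups compared and 136 with LP and MSC in one fit. Fits chosen after seeing the data gave 3 with the shared lowest value subtracted, 9 with the basal marker covariate and 0 with the endothelial covariate or without EP+TPA 312 and 328. Leaving out 1 library at a time gave 0 to 17 (17 without EP 306). EP against sham gave 0, 1 with no filter, 1090 with library weights and 0 to 1 leaving out 1 library. EP+TPA against sham gave 5 with library weights, and EP+TPA against EP+RU486 gave 0 under every setting run.

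For the difference between fractions the count was 204, against 804 with library weights, 132 with the stricter filter, 103 without EP+TPA 312 and 328, and 47 to 548 leaving out 1 mouse (47 without mouse 323, 548 without mouse 311). With the replicate block (mouse) it was 6.

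The mitosis median ran from -1.29 to -0.998 and the replication median from -0.90 to -0.64 leaving out 1 library. Of all genes, 256 to 739 were then lower at an unadjusted p under 0.05. Of the lists, 19 to 25 of 26 mitosis genes and 17 to 23 of 30 replication genes were. In the smaller set alone, with 1 EP+TPA library, 5 of 16 and 3 of 27 were, against 2.10% of all genes in that direction, and the lone library is assumed to vary like the other groups. Of 2072 values of named genes under the alternatives 87 changed sign, as did 108 of 864 list medians, the widest ranges in endothelial (-0.80 to 3.06) and red blood cell markers (-1.80 to 1.43). For values turned by a setting the cause was not tested. Depth is unknown, so low genes such as Mki67 carry an error that cannot be given.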

Other observations

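Some lists not described above also held genes at an unadjusted p under 0.05, none of which passed an adjusted p of 0.05. Of 18 prolactin and STAT5 genes, which act in milk production, 5 were higher (3.36% of all genes) and 0 lower, with a median of 0.49. The 5 were Stat5b, Elf5, Csn1s2a, Csn3 and Lalba, with log2 folds from 0.41 to 0.84, and Elf5 and Csn3 are also luminal progenitor markers. The count was 1 without EP+TPA 323, 2 without EP 327 and 1 in the values as deposited (median 0.11). Elf5, Csn1s2a, Csn3 and Lalba sat on the high common level of the larger set, where the lowest deposited values were 13.7, 5.06, 1183 and 147. In the smaller set the lowest were 2.36, 0.555, 73.8 and 13.4. Among 28 genes of basement membrane and matrix, Tnc, a matrix protein of remodelling tissue, was 9.02, 3.62, 15.3 and 4.64 in EP 306, 322, 311 and 327. It was 15.1, 22.5, 92.1 and 48.2 in EP+TPA 323, 312, 328 and 336, higher than every EP library of the same set (log2 fold 1.99, SE 0.56, limma adjusted p = 0.397). Timp2, an inhibitor of matrix proteases, was also higher (0.76), and Col4a1, a basement membrane collagen, lower (-1.70). As deposited, Col4a1 was highest in EP 327 (268), where the endothelial markers were listed at 0, and lowest in EP+TPA 328 (5.68). Of 23 genes of glycolysis and hypoxia, Vegfa, the vascular growth factor, was lower (-0.93) and Aldoc higher (0.53). Aldoc sat on a high common level like the luminal genes, at 88.6 or above as deposited in the larger set. There it was 90.3 and 94.1 in EP 311 and 327 and 88.6, 108 and 94.1 in EP+TPA 312, 328 and 336. Of 23 genes of the unfolded protein response, Hsp90b1 and Pdia4, chaperones of the secretory pathway, were lower (-0.55 and -0.40). Of 25 interferon-stimulated genes 0 had an unadjusted p under 0.05, with a median of 0.10. With the endothelial marker level as a covariate, a fit added after seeing the data, 8 were lower (median -0.60), against 4.55% of all genes. Over all settings the median ran from -1.03 to 0.69.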
